A study of Homo sapiens with 60 samples.

Results

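Notch is a contact-dependent signalling pathway, and 10 of its genes were followed here among the 19712 genes of the deposited tables. The members were taken from a list of gene names, with no measured value in the rule: the receptors NOTCH1, NOTCH2, NOTCH3 and NOTCH4, the ligands JAG1, JAG2, DLL1 and DLL4, and the target genes HES1 and HEY1. All 10 were present in both deposited tables, one of estimated counts and one of log2 TPM. A Notch receptor sits on the surface of one cell and binds a Jagged or Delta-like ligand on a neighbouring cell. Binding leads to cleavage of the receptor by an ADAM protease and then by gamma-secretase, and the released intracellular domain enters the nucleus and joins the DNA-binding protein RBPJ to switch on genes such as those of the HES and HEY families of transcriptional repressors. In the airway and lung the pathway is known for directing cell fate choices, secretory against ciliated cells among them.

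The libraries came from PC9, HCC827, H1975 and HCC2935, established non-small cell lung cancer lines with activating mutations of EGFR, the receptor tyrosine kinase that osimertinib inhibits. Each line was sampled in 5 arms of 3 replicates, giving 60 RNA-seq libraries in 20 groups, and the replicates were called biological triplicates in the series description. Parental cells grown without drug for 21 days received either the vehicle DMSO for 24 h or 500 nM osimertinib for 24 h (acute osimertinib). Drug-tolerant persisters (DTP) had been kept in 500 nM osimertinib for 21 days. The short washout arm was the same treatment followed by 24 h in drug-free medium, and the long washout arm followed it with 7 days for PC9, 4 days for HCC827, 3 days for H1975 or 10 days for HCC2935, so the long washout is not one time across lines. No line carried an engineered allele according to the labels, and bulk libraries of this kind cannot tell fewer expressing cells apart from less RNA per cell.

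Library totals ran from 17715463 to 25065748 estimated counts in HCC827, 18642664 to 25580726 in HCC2935, 34679126 to 47111810 in PC9 and 38712820 to 49134031 in H1975. In 60 of 60 libraries the most similar other library came from the same line, but in only 47 of 60 did it come from the same group. Of 10 target genes of ERK, the kinase downstream of EGFR, 9 were lower than in DMSO in PC9, 8 in HCC827, 8 in H1975 and 10 in HCC2935 in the acute arm. The long washout libraries of HCC827 and H1975 stood close to the persisters: all 10 proliferation genes were still lower than in DMSO in both lines, against 4 in PC9 and 5 in HCC2935, and mean MKI67 was 174 CPM in HCC827 and 176 CPM in H1975, against 486 and 699 CPM in their DMSO groups. Results of the long washout are therefore given line by line. The epithelial markers KRT8, KRT18 and KRT19 were at 353 CPM or more in every library, but EPCAM went down to 16.6 CPM and CDH1 to 3.79 CPM, both in H1975. Of the alveolar markers SFTPB did not pass 3.83 CPM, while NAPSA ran from 0.303 to 388.5 CPM, and the neuroendocrine marker INSM1 was at 0 in all 60.

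The promoter of HES1 is printed as an example of a Notch target in sequence. It is set beside that of HES4, a related target that is not a member, and both genes were measured in every line. The letters are the 250 bases before the RefSeq start of each gene in GRCh38.p14, chr3:194135898-194136147 on the plus strand for HES1 and chr1:1000098-1000347 on the minus strand for HES4, written 5′ to 3′. Capitals mark TGGGAA, the core letters of the known RBPJ motif, on either strand.
HES1: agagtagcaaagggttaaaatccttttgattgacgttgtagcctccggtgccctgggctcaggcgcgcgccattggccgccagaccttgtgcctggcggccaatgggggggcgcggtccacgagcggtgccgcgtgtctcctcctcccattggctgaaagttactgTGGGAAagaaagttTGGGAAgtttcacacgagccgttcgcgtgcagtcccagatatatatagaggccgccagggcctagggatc
HES4: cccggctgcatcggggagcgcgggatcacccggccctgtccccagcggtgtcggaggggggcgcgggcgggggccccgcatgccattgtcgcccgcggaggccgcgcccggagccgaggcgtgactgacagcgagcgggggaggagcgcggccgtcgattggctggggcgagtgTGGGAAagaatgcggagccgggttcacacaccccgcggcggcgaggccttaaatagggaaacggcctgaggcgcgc
HES1 held 2 matches on its own strand, starting 84 and 70 bases before the gene start, and HES4 held 1. Extended by 1 base to GTGGGAA, which contains TGGGAA, the motif matched 85 bases before the start of HES1 and 77 before that of HES4. In windows of 250 bases before to 50 after the start, searched on both strands, GTGGGAA occurred in 6.25% and TGGGAA in 24.0% of 35116 RefSeq promoters. Promoters were found for 8 of the 10 members, not for DLL1 and HEY1. GTGGGAA occurred in 5 of the 6 promoters found among HES1, HEY1 and 5 further target genes, and in 0 of the 7 found among the receptors and ligands. The promoter of NRARP, also a target measured in every line, held neither GTGGGAA nor TGGGAA. A match is a description of these letters and not a bound site.

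In DMSO, levels compared per length showed NOTCH2 and NOTCH3 as the main receptors and JAG1 and JAG2 as the main ligands in all 4 lines. By mean level NOTCH2 came first in PC9 at 62.3 ± 2.07 TPM (SD, n = 3) and in HCC827 at 87.9 ± 3.87 TPM, JAG1 in H1975 at 46.9 ± 9.38 TPM and JAG2 in HCC2935 at 76.5 ± 14.3 TPM. The ranges of neighbours in that order touched more than once: in PC9 the range of HES1, 34 to 83.2 TPM, spanned that of NOTCH2, and JAG2 at 42.8 ± 0.776 TPM and NOTCH3 at 42.5 ± 0.918 TPM could not be ranked, in H1975 the range of HES1 overlapped those of both JAG1 and NOTCH2, and in HCC2935 those of JAG2, NOTCH3 and HES1 overlapped each other. NOTCH3 differed most between lines among the abundant members, at 69.3 ± 4.89 TPM in HCC2935 and 42.5 TPM in PC9 but 6.73 ± 2.50 TPM in HCC827 and 5.49 ± 3.03 TPM in H1975. NOTCH1, NOTCH4, HEY1 and DLL1 had means of at most 1.56 TPM in each line, and DLL4 reached 3.39 ± 0.674 TPM in HCC2935 but had means of at most 0.0978 TPM in the other 3 lines.

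The test of any difference among the 12 DMSO libraries called 8 of 10 members, against 91.2% of all genes tested. The smallest adjusted p-values among members were those of NOTCH2 (edgeR adjusted p = 4.78e-10) and DLL4 (edgeR adjusted p = 3.15e-09). NOTCH1 (edgeR adjusted p = 0.388) and HES1 (edgeR adjusted p = 0.0943) did not pass. A share of members near that of all genes is no feature of the Notch genes.

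A change was called at a Benjamini-Hochberg adjusted p under 0.05 in edgeR's quasi-likelihood test over all genes of a comparison, each line fitted alone, and members with too few counts were not tested. Log2 changes come from those fits, and CPM values are counts scaled to the TMM-adjusted total of their library. Acute osimertinib changed 11 of 33 tested member and line pairs, 5 higher and 6 lower. In PC9, 2 of 9 tested members rose and 2 fell, against 34.4% of all genes higher and 34.1% lower. In HCC827 none of 6 rose and 1 fell, against 20.2% and 22.1%. In H1975 1 of 9 rose and none fell, against 21.2% and 23.7%. In HCC2935 2 of 9 rose and 3 fell, against 22% and 25.1%. In PC9, HCC827 and H1975 the share of tested members called was below that of all genes. The median log2 change of the tested members lay between -0.09 and 0.20 in the 4 lines, and that of all genes between 0.01 and 0.03.

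In persisters against DMSO 16 of 31 tested pairs changed, 9 higher and 7 lower. PC9 had 3 of 8 higher and 2 lower, against 35.4% and 35.9% of all genes. HCC827 had 1 of 6 higher and 0 lower, against 19.4% and 17.2%. H1975 had 1 of 8 higher and 3 lower, against 22.4% and 23.4%. HCC2935 had 4 of 9 higher and 2 lower, against 25.3% and 27.2%. The median log2 change of tested members was 0.18 in PC9, 0.30 in HCC827, -0.87 in H1975 and 0.32 in HCC2935, and that of all genes was within 0.02 of 0 in each line.

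In persisters against acute osimertinib 18 of 34 tested pairs changed, 9 in each direction. PC9 had 4 of 9 higher and 1 lower, against 19.2% and 20.6% of all genes. HCC827 had 2 of 7 higher and 1 lower, against 15.7% and 13.8%. H1975 had 0 of 9 higher and 4 lower, against 11.2% and 14.9%. HCC2935 had 3 of 9 higher and 3 lower, against 22% and 20.4%. These comparisons share the persister libraries with the one before, so the counts are not independent of each other. On the log2(TPM + 1) scale, which has no TMM factor, the median of all genes shifted by 0.22 in PC9 and 0.14 in HCC2935 persisters against DMSO and by 0.23 and 0.14 against acute drug, with 6396 higher and 3591 lower genes in PC9 and 4687 and 2876 in HCC2935 against DMSO, and 5822 and 1227 in PC9 and 4247 and 1876 in HCC2935 against acute drug.

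**Figure D1:**
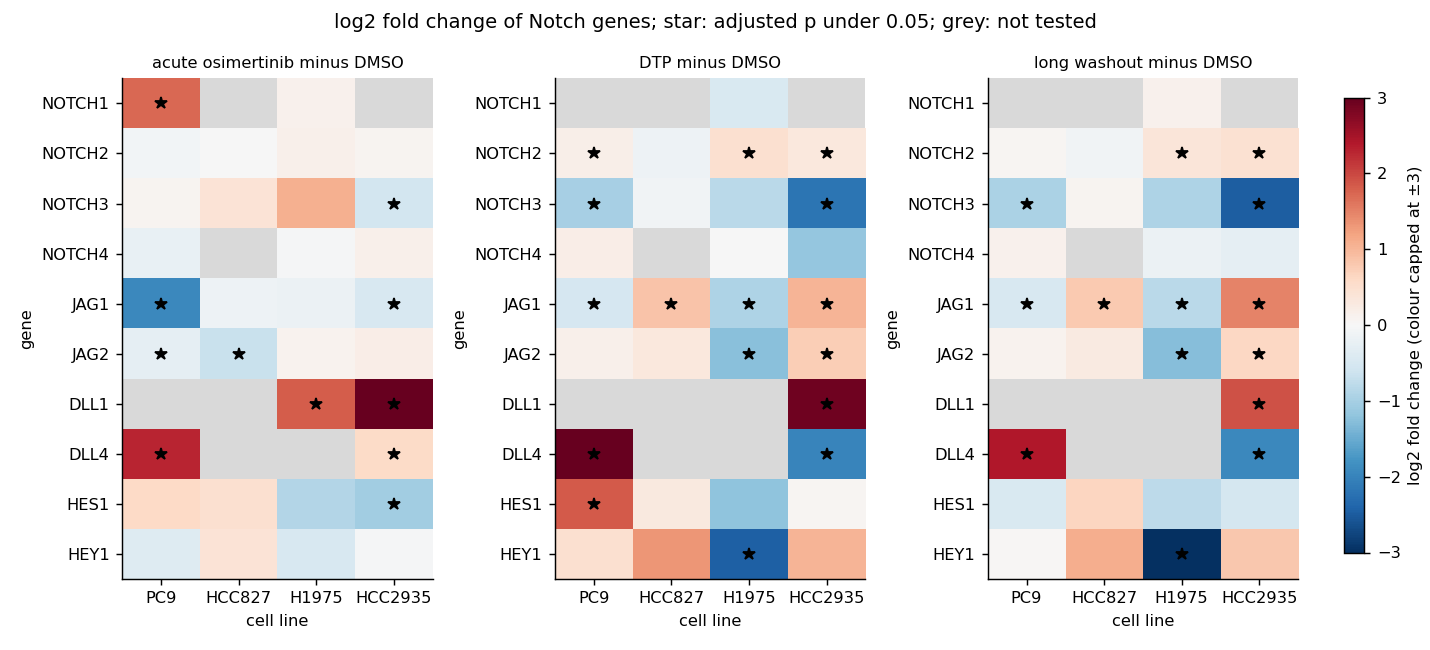
Log2 fold changes of the 10 Notch genes (rows) in the 4 lines (columns) for acute osimertinib, persisters and long washout, each minus DMSO, with colour capped at 3 either way, a star at an edgeR adjusted p under 0.05 and grey where a gene was not tested. JAG1 carries a star in all 4 lines in persisters, down in PC9 and H1975 and up in HCC827 and HCC2935, and NOTCH3 is blue with a star in PC9 and HCC2935 in both the persister and the long washout panel.

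NOTCH3, a receptor known from vascular smooth muscle, was the one member that moved the same way in all 4 lines in a comparison: it was lower in persisters than after acute osimertinib in each. In HCC2935 its level was 286, 303 and 310.1 CPM in the DMSO replicates, 194, 173 and 258 CPM after acute osimertinib and 76.7, 62.4 and 60.5 CPM in persisters. The 3 groups did not overlap. The fall was called with acute drug, at a log2 change of -0.55 ± 0.14 (SE, edgeR adjusted p = 0.0098), and in persisters against DMSO, at -2.19 ± 0.11 (edgeR adjusted p = 1.56e-06), a 0.22-fold level.

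In PC9 NOTCH3 was at 245, 251 and 239.7 CPM in DMSO, 287, 252 and 262 CPM with acute drug, and 119.5, 143 and 114 CPM in persisters. Acute values lay just above those of DMSO without a call (log2 change 0.08 ± 0.07, edgeR adjusted p = 0.319), while persisters were at 0.499-fold of DMSO (edgeR adjusted p = 5.21e-06). H1975 held a wide spread: 41.4, 11.9 and 26.6 CPM in DMSO, 27.4, 55.1 and 94.1 CPM with acute drug, and 19.5, 10.9 and 16.4 CPM in persisters. Persisters overlapped DMSO there (log2 change -0.82 ± 0.40, edgeR adjusted p = 0.124) and lay below every acute library (-1.95 ± 0.41, edgeR adjusted p = 0.0105). HCC827 persisters at 35.4, 32.2 and 28.4 CPM also lay below the acute libraries at 43.4, 52.6 and 47.7 CPM (-0.58 ± 0.12, edgeR adjusted p = 0.0114), but within the DMSO range of 22.4 to 49.2 CPM. The HCC827 call was lost without acute replicate 2 (log2 change -0.51, edgeR adjusted p = 0.0501) and with all 15 libraries of the line in one fit (edgeR adjusted p = 0.0854). Against acute drug, the log2 change was -1.08 ± 0.10 in PC9 and -1.64 ± 0.16 in HCC2935.

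NOTCH2, the receptor with the highest levels, moved little and was among the most even genes between replicates, with a pooled standard deviation of 0.08 on the log2 scale, larger than that of 0.641% of 11708 genes at 5 CPM or more. In H1975 it rose from 307, 335 and 322 CPM in DMSO to 484, 454 and 439 CPM in persisters (log2 change 0.48 ± 0.09, edgeR adjusted p = 0.00342), with acute libraries at 367, 396 and 361 CPM in between. In HCC2935 it rose from 244, 216 and 226 CPM to 306, 273 and 285 CPM (0.32 ± 0.08, edgeR adjusted p = 0.0113). No replicate of these persister groups overlapped DMSO. In PC9 the change from 640.1, 602 and 621 CPM to 751, 664 and 737 CPM was a 1.13-fold rise (0.17 ± 0.06, edgeR adjusted p = 0.0266). That call was lost without DMSO replicate 2 (0.14, edgeR adjusted p = 0.0982), DMSO replicate 3 (0.18, edgeR adjusted p = 0.0559), DTP replicate 1 (0.13, edgeR adjusted p = 0.107) or DTP replicate 3 (0.16, edgeR adjusted p = 0.086). In HCC827 persisters were at 724, 703 and 686 CPM and DMSO at 814, 751 and 797 CPM, lower in every replicate but not called (-0.14 ± 0.10, edgeR adjusted p = 0.318).

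The ratio of NOTCH2 to NOTCH3, taken per length from TPM, followed from these changes. In HCC2935 it ran from 0.412 to 0.494 in DMSO and from 2.31 to 2.73 in persisters, so the more abundant receptor changed. In PC9 it ran from 1.39 to 1.52 in DMSO and from 2.69 to 3.75 in persisters. In HCC827 the persister range of 11.9 to 14.0 lay inside the DMSO range of 9.39 to 19.5, and in H1975 the persister range of 14.4 to 24.3 overlapped the DMSO range of 4.29 to 16.4.

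NOTCH2 has partial copies in the human genome, the NOTCH2NL genes, and reads from shared sequence could have been divided between them in the counting. NOTCH2NLA ranged from 4.36 to 27.7 CPM, NOTCH2NLB from 0.369 to 5.45 CPM and NOTCH2NLC from 12.4 to 44.9 CPM. Per length in DMSO, NOTCH2NLA had means of 13.3 TPM in PC9, 59.8 in HCC827, 35.3 in H1975 and 33.0 in HCC2935. Those of NOTCH2 were 62.3, 87.9, 38.5 and 30.6 TPM in the same order. NOTCH2NLB and NOTCH2NLC had means of at most 5.30 TPM in DMSO. In PC9 persisters NOTCH2NLA rose by a log2 change of 1.07 (edgeR adjusted p = 0.000456) and NOTCH2NLC by 0.97 (edgeR adjusted p = 2.66e-06), and in H1975 both rose by 1.00 and 1.01 (edgeR adjusted p = 0.000387 and 0.00037). NOTCH2NLB also rose in persisters of PC9 (0.812, edgeR adjusted p = 0.0114) and H1975 (0.815, edgeR adjusted p = 0.0374). In HCC2935 persisters NOTCH2NLA rose (0.54, edgeR adjusted p = 0.0455). There NOTCH2NLB (-0.37, edgeR adjusted p = 0.5045) and NOTCH2NLC (0.31, edgeR adjusted p = 0.0638) were not called. No copy was called in HCC827 persisters (edgeR adjusted p from 0.544 to 0.566). The NOTCH2 values carry the uncertainty of shared reads, whose part in the result was not tested.

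NOTCH1, the receptor best known from leukaemia, was close to the limit of detection, with 0 to 31 counts a library and none in 5 of 60. Its called change was a rise in PC9 with acute drug, from 8, 8 and 5 counts in DMSO to 26, 26 and 20 (0.242, 0.188 and 0.145 CPM against 0.747, 0.653 and 0.562 CPM). The groups did not overlap, and the log2 change was 1.72 ± 0.42 (edgeR adjusted p = 0.00517). In HCC2935 the gene was at 11, 7 and 10 counts in DMSO and 0, 0 and 4 in persisters, and it did not pass the filter of edgeR. The fall was called by limma on log2(TPM + 1) (adjusted p = 0.0101), as was that in long washout against DMSO (-1.05, adjusted p = 0.00235), which edgeR with no filter also called (adjusted p = 0.0161). In PC9 persisters limma called a rise (0.48, adjusted p = 0.0171). NOTCH4, an endothelial receptor that overlaps GPSM3 on the same strand, had 1 to 68 counts a library and no call in any of the 6 comparisons.

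**Figure D2:**
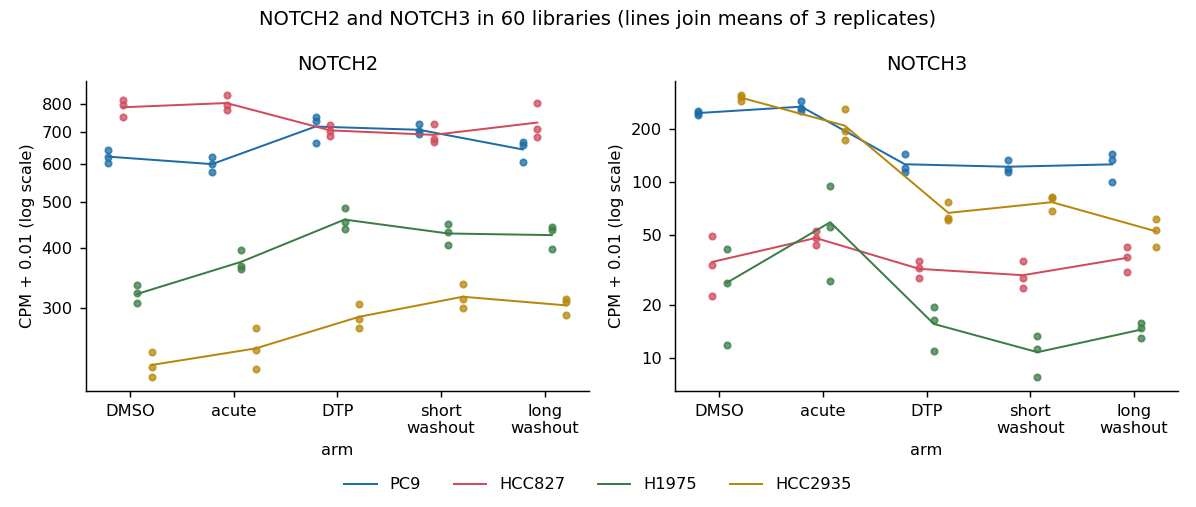
NOTCH2 (left) and NOTCH3 (right) in all 60 libraries, in CPM plus 0.01 on a log axis, by arm, with points for replicates and lines through the means of 3. NOTCH3 in HCC2935 drops from 286 to 310.1 CPM in DMSO to 60.5 to 76.7 CPM in DTP, while NOTCH2 stays within a narrow band in each line.

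JAG1, a ligand of NOTCH2 and NOTCH3 among others, changed in persisters against DMSO in all 4 lines, and not in one direction. In PC9 it was at 75.4, 62.1 and 93.1 CPM in DMSO, 17.5, 23.7 and 21.1 CPM with acute drug, and 65.6, 49.5 and 50.7 CPM in persisters. The acute fall was to 0.263-fold (log2 change -1.93 ± 0.16, edgeR adjusted p = 9.35e-06), with no overlap. Persisters lay between the other groups: higher than acute (1.42 ± 0.14, edgeR adjusted p = 0.000163) and lower than DMSO with overlapping ranges (-0.51 ± 0.16, edgeR adjusted p = 0.0135), the last call being lost without DMSO replicate 3 (-0.35, edgeR adjusted p = 0.0575) and under limma on log2(TPM + 1) (-0.23, adjusted p = 0.193).

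HCC2935 showed the same order at 24 h and another one in persisters. JAG1 was at 80.0, 69.4 and 84.4 CPM in DMSO, 56.2, 50.1 and 65.5 CPM with acute drug and 195, 142 and 140.2 CPM in persisters. It fell with acute drug (-0.47 ± 0.13, edgeR adjusted p = 0.0123), a call lost without acute replicate 2 (-0.38, edgeR adjusted p = 0.0518). It then stood at 2.02-fold of DMSO in persisters (1.01 ± 0.14, edgeR adjusted p = 0.000376), above every DMSO and acute library.

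In HCC827 the acute libraries of JAG1 overlapped DMSO without a call (28.7, 34.3 and 29.7 CPM in DMSO, 21.3, 27.6 and 36.6 CPM acute, edgeR adjusted p = 0.555), and it was at 36.2, 57.6 and 72.1 CPM in persisters. The persister rise over DMSO (0.86 ± 0.23, edgeR adjusted p = 0.0176) was lost without DMSO replicate 1 (0.80, edgeR adjusted p = 0.0689), DMSO replicate 3 (0.82, edgeR adjusted p = 0.0551), DTP replicate 2 (0.81, edgeR adjusted p = 0.0541) or DTP replicate 3 (0.62, edgeR adjusted p = 0.0608). In H1975, where JAG1 was highest in DMSO, it fell from 195, 138 and 141 CPM to 109.9, 75.9 and 69.6 CPM (-0.93 ± 0.20, edgeR adjusted p = 0.00525), while the acute libraries at 119 to 189 CPM overlapped DMSO.

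The direction of JAG1 in persisters was set beside that of the epithelial and mesenchymal markers, which also moved. In HCC827 all 5 epithelial markers fell and all 4 mesenchymal markers rose, in HCC2935 4 of 5 fell and 3 of 4 rose, in H1975 2 of 5 fell and 1 of 3 tested rose, and in PC9 2 of 5 fell and 2 rose while 1 mesenchymal marker rose and 2 fell. The summed epithelial level went from between 7615 and 9278 CPM to between 2683 and 3849 CPM in HCC827, from 2502 to 3265 CPM to 1842 to 2485 CPM in H1975, from 9852 to 10820 CPM to 6841 to 7613 CPM in HCC2935, and was 8918 to 9134 CPM and 9098 to 9309 CPM in PC9. Those sums are mostly keratins. In H1975 the adhesion molecules CDH1, from a mean of 253.6 to 7.37 CPM (edgeR adjusted p = 8.19e-05), and EPCAM, from 191 to 20.2 CPM (edgeR adjusted p = 0.000134), were the 2 that fell. The summed mesenchymal level, mostly FN1, rose from 5075 to 6296 CPM to 21450 to 30020 CPM in HCC2935. This sum was also higher in persisters of PC9, where JAG1 fell: DMSO libraries held 134.8 to 205.9 CPM, persisters 1610 to 2941 CPM. For HCC827, where JAG1 rose, DMSO libraries held 390.6 to 426.9 CPM, persisters 2496 to 3062 CPM. H1975, where JAG1 fell, had overlapping ranges: 2091 to 3257 CPM with DMSO, 3069 to 4578 CPM as persisters. The part of these markers in the ligand result was not tested.

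JAG2, the other Jagged ligand, was in PC9 at 118, 119.5 and 115 CPM in DMSO, 97.4, 103 and 98.9 CPM with acute drug and 134, 140.4 and 128 CPM in persisters. The acute fall was small and called (-0.28 ± 0.06, edgeR adjusted p = 0.00283), and the persister value was above DMSO in each replicate without a call (0.15 ± 0.07, edgeR adjusted p = 0.0656). That rise was called by DESeq2 (adjusted p = 0.0416), by edgeR with at least 10 counts in every library (0.0149) or all 15 libraries in one fit (0.026), and by limma on log2(TPM + 1) (0.41, adjusted p = 0.000263), a scale on which the median of all genes shifted by 0.22. In HCC827 it fell from 76.4, 84.1 and 60.9 CPM to 47.4, 46.1 and 50.02 CPM with acute drug (-0.66 ± 0.13, edgeR adjusted p = 0.00283) and was at 71.0, 93.6 and 107 CPM in persisters. The persisters thus stood above acute (0.92 ± 0.15, edgeR adjusted p = 0.00361) and overlapped DMSO.

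In H1975 JAG2 fell in persisters to 28.9, 30.2 and 20.3 CPM from 66.3, 54.4 and 64.1 CPM in DMSO (-1.25 ± 0.17, edgeR adjusted p = 0.000569). In HCC2935 it rose to 226, 277 and 294 CPM from 164, 188 and 122 CPM (0.74 ± 0.16, edgeR adjusted p = 0.00371). Neither persister group overlapped its DMSO group. With acute drug HCC2935 was at 193, 213 and 148 CPM, not called (0.20 ± 0.16, edgeR adjusted p = 0.346). Replicates of the same number deviated together in that comparison, and once that number entered the fit as a block a log2 change of 0.20 was called (edgeR adjusted p = 0.03), with 7484 calls over all genes in place of 6623.

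Against acute drug, both Jagged ligands were higher in persisters of PC9, HCC827 and HCC2935 and lower in those of H1975. For JAG1 the log2 change was 0.96 ± 0.27 in HCC827, -0.80 ± 0.22 in H1975 and 1.48 ± 0.15 in HCC2935. For JAG2 it was 0.44 ± 0.06 in PC9, -1.41 ± 0.24 in H1975 and 0.53 ± 0.15 in HCC2935. The edgeR adjusted p of JAG1 was 0.0314 in HCC827 and 0.0282 in H1975, and both calls were lost without any one of 4 libraries (acute replicates 1 and 2 and DTP replicates 2 and 3 in HCC827, acute replicates 2 and 3 and DTP replicates 2 and 3 in H1975), with an edgeR adjusted p of up to 0.109. The JAG2 call in HCC2935 (edgeR adjusted p = 0.0146) was lost without DTP replicate 3 (0.45, edgeR adjusted p = 0.0621).

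DLL1, a Delta-like ligand, gave the largest change of any member, in HCC2935. It was at 0.946, 0.7 and 0.559 CPM in DMSO and 16.1, 13.9 and 14.5 CPM with acute osimertinib, a 19.5-fold rise (log2 change 4.29 ± 0.23, edgeR adjusted p = 1.46e-06). In persisters it was at 6.53, 5.36 and 5.18 CPM, above DMSO (2.92 ± 0.31, edgeR adjusted p = 7.43e-05) and below acute (-1.38 ± 0.17, edgeR adjusted p = 0.000174). None of the 3 groups overlapped another. DLL1 overlaps FAM120B on the opposite strand, and whether the counting used strand is not given in the sources used here; FAM120B in HCC2935 went from 33.8 CPM in DMSO to 44.9 CPM with acute drug (log2 change 0.38, edgeR adjusted p = 0.00982) and 38.7 CPM in persisters (0.18, edgeR adjusted p = 0.141).

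In the other lines DLL1 stayed below 1 CPM. In PC9 it had 0 counts in each DMSO library and 2, 3 and 7 counts with acute drug, at least 3.92-fold higher by a floor of 3 counts over the group. It did not pass the filter, and edgeR with no filter called the rise (adjusted p = 0.027). In H1975 the acute rise from 0.138, 0.0222 and 0.109 CPM to 0.333, 0.363 and 0.339 CPM was called (1.83 ± 0.57, edgeR adjusted p = 0.0346). It was lost under DESeq2 (adjusted p = 0.0738) and without DMSO replicate 2 (1.38, edgeR adjusted p = 0.0659), DMSO replicate 3 or any one of the acute libraries (edgeR adjusted p up to 0.0929). In persisters DLL1 did not pass the filter in HCC827 or H1975, and with all 15 libraries of the line in one fit it was called higher in both (3.17, edgeR adjusted p = 0.00663, and 1.51, edgeR adjusted p = 0.0434). FAM120B also rose with acute drug in PC9 (0.548, edgeR adjusted p = 0.00106) and in HCC827 persisters (0.549, edgeR adjusted p = 0.00968). In H1975 it was not called with acute drug (edgeR adjusted p = 0.213) or in persisters (edgeR adjusted p = 0.0765). The part of FAM120B in these low DLL1 counts was not tested.

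DLL4, a Delta-like ligand known from blood vessels, moved in opposite directions in persisters of PC9 and HCC2935. In PC9 it rose from 0.121, 0.165 and 0.145 CPM in DMSO to 0.661, 0.753 and 0.787 CPM with acute drug and to 2.04, 1.82 and 1.63 CPM in persisters. Both steps were called, acute at a log2 change of 2.28 ± 0.41 (edgeR adjusted p = 0.000912) and persisters at 3.59 ± 0.38 (edgeR adjusted p = 1.60e-05), a 12.1-fold level. In HCC2935 the order was 7.16, 5.51 and 7.87 CPM in DMSO, 11.1, 8.97 and 10.99 CPM with acute drug and 2.11, 1.41 and 1.74 CPM in persisters. The persister fall was to 0.253-fold (-1.98 ± 0.27, edgeR adjusted p = 0.000313). The acute rise (0.57 ± 0.20, edgeR adjusted p = 0.0376) was lost without DMSO replicate 1 (0.59, edgeR adjusted p = 0.0805), DMSO replicate 2 (0.43, edgeR adjusted p = 0.123), acute replicate 1 (0.52, edgeR adjusted p = 0.0972) or acute replicate 3 (0.51, edgeR adjusted p = 0.0965). HCC827 and H1975 held less than 1 CPM in every library. The vascular markers PECAM1 and CDH5 ranged from 0.0823 to 31.5 CPM and from 0.0463 to 44.5 CPM over the libraries; both fell in PC9 persisters and both rose with acute drug in HCC2935, CDH5 also fell with acute drug in PC9 and rose with acute drug and in persisters in H1975, and their part in the DLL4 result was not tested.

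**Figure D3:**
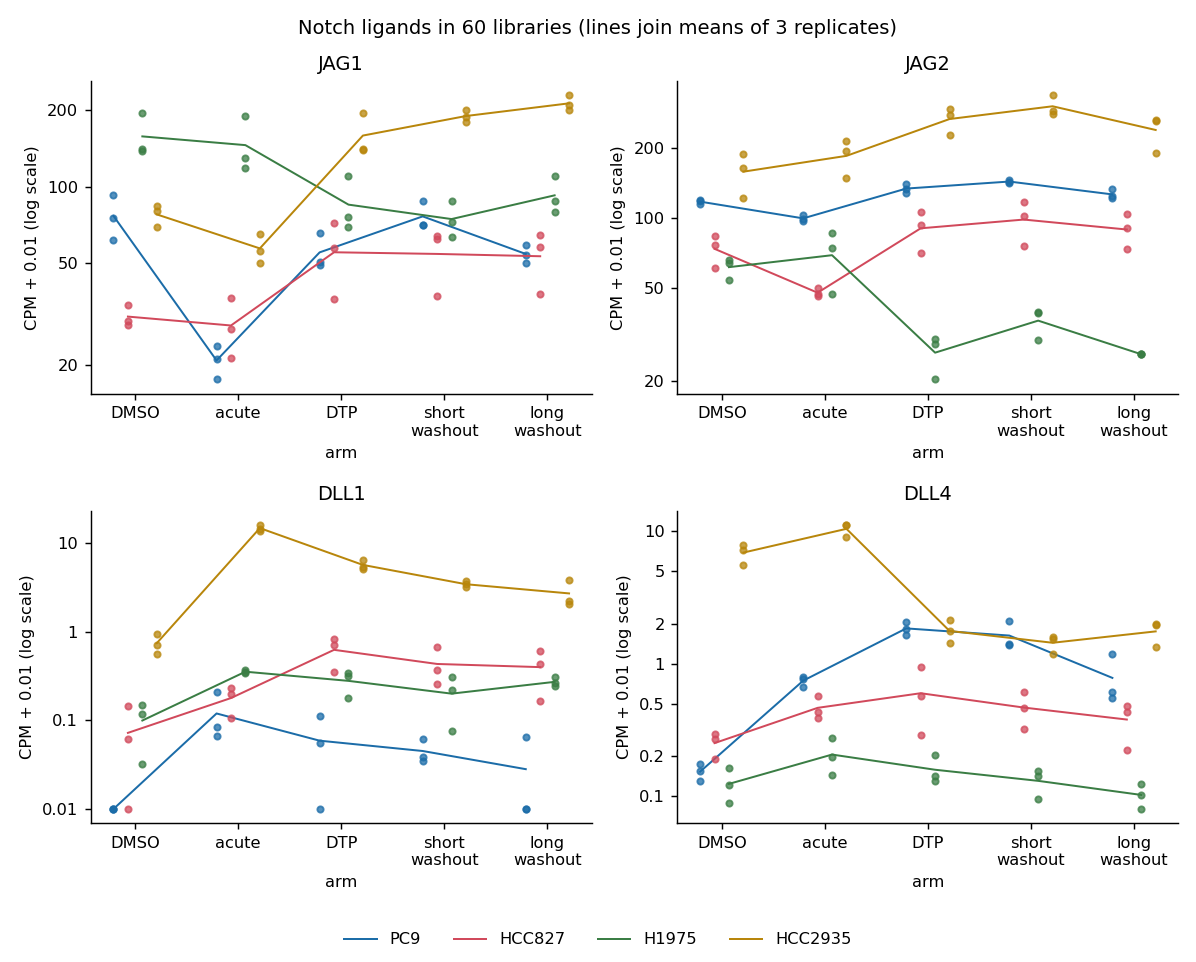
JAG1, JAG2, DLL1 and DLL4 in all 60 libraries, in CPM plus 0.01 on log axes, by arm, with points for replicates and lines through the means of 3; a point at 0.01 is a library with 0 counts. DLL1 in HCC2935 climbs from below 1 CPM in DMSO to between 13.9 and 16.1 CPM with acute drug, and the DLL4 lines of PC9 and HCC2935 meet in DTP, at means of 1.83 and 1.75 CPM.

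HES1, the classical repressor downstream of Notch, was the member with the widest spread between replicates. Its pooled within-group standard deviation was 1.02 on the log2 scale, above that of 99.96% of 11708 genes at 5 CPM or more, whose median was 0.17. In PC9 persisters the replicates were at 51.8, 121 and 506 CPM, in HCC827 acute libraries at 9.44, 4.81 and 66.4 CPM, and in HCC827 persisters at 6.46, 52.0 and 10.00 CPM. The highest of these replicates exceeded the lowest 9.76-fold, 13.8-fold and 8.05-fold.

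3 changes of HES1 were called. In HCC2935 it fell from 38.8, 32.9 and 63.5 CPM in DMSO to 20.9, 19.1 and 26.6 CPM with acute drug (-1.05 ± 0.24, edgeR adjusted p = 0.00575), with no overlap. Persisters of that line, at 29.5, 75.4 and 37.5 CPM, were above acute (1.11 ± 0.30, edgeR adjusted p = 0.0144), a call lost without acute replicate 1 (1.05, edgeR adjusted p = 0.056) or acute replicate 2 (1.01, edgeR adjusted p = 0.0511). In PC9 the persister rise over DMSO at 96.3, 39.5 and 48.7 CPM (1.84 ± 0.68, edgeR adjusted p = 0.0346) rested on 1 library: without DTP replicate 3 the log2 change was 0.47 (edgeR adjusted p = 0.327). It was lost also without DMSO replicate 2 (1.59, edgeR adjusted p = 0.101) or DMSO replicate 3 (1.71, edgeR adjusted p = 0.103), and under DESeq2 (adjusted p = 0.0836).

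**Figure D4:**
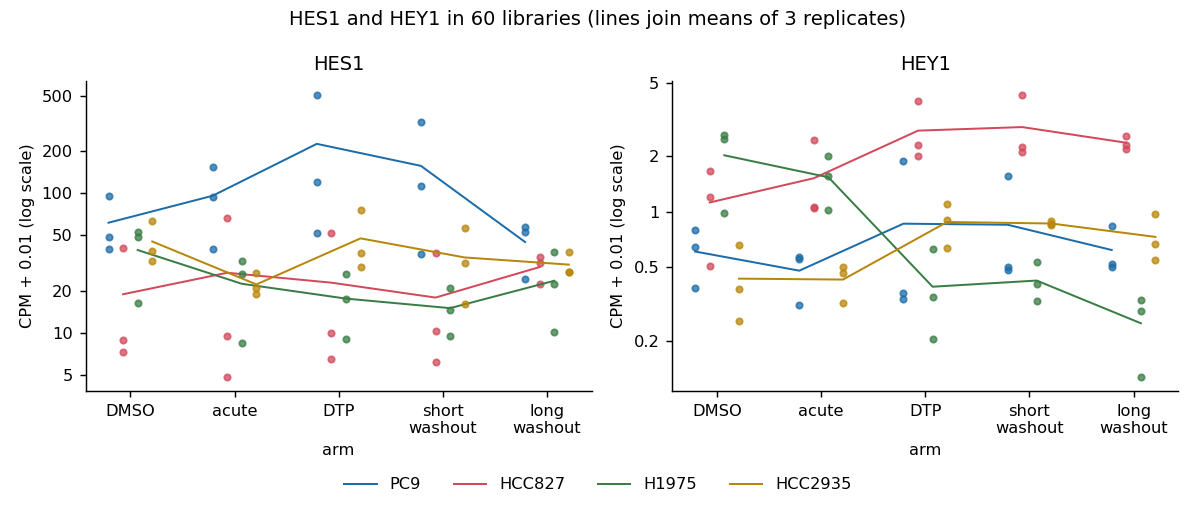
HES1 (left) and HEY1 (right) in all 60 libraries, in CPM plus 0.01 on log axes, by arm, with points for replicates and lines through the means of 3. HES1 points of one group spread over up to 13.8-fold, while HEY1 in H1975 lies between 0.976 and 2.60 CPM in DMSO and between 0.194 and 0.618 CPM in DTP.

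HEY1, a repressor of the HEY family, was low in all lines, with 5 to 126 counts a library. In H1975 it fell from 2.48, 0.976 and 2.60 CPM in DMSO to 0.618, 0.194 and 0.336 CPM in persisters, 0.184-fold (log2 change -2.44 ± 0.53, edgeR adjusted p = 0.00587), and acute libraries at 1.02, 1.57 and 2.01 CPM overlapped DMSO. The fall against acute (-2.02 ± 0.49, edgeR adjusted p = 0.0185) was lost without acute replicate 2, acute replicate 3, DTP replicate 2 or DTP replicate 3, at an edgeR adjusted p of up to 0.0607. In HCC827 the persisters at 3.97, 2.30 and 1.99 CPM lay above DMSO at 1.65, 1.20 and 0.496 CPM without a call (1.32 ± 0.52, edgeR adjusted p = 0.0787), and were called with all 15 libraries of the line in one fit (edgeR adjusted p = 0.0415). HCC2935 (1.02 ± 0.51, edgeR adjusted p = 0.121) and PC9 (0.48 ± 0.66, edgeR adjusted p = 0.532) were not called either.

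The genes whose pattern was most like that of HES1 over the 20 group means, centred within each line, were FOS (Pearson r = 0.855), FOSB (0.789) and NR4A1 (0.787), all early response genes that rise within minutes of a stimulus. The deviations of single libraries from their group means followed the same genes, with r of 0.806 for FOS, 0.699 for FOSB and 0.505 for NR4A1 over 60 libraries. FOS in PC9 persisters was at 72.5, 138 and 309.9 CPM, in the order of HES1, and in HCC827 persisters at 1.07, 92.4 and 3.05 CPM, where HES1 was at 6.46, 52.0 and 10.00 CPM. The points share lines, libraries and depth, so these values are descriptions. The part of library handling and of growth state in the spread was not tested.

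**Figure D5:**
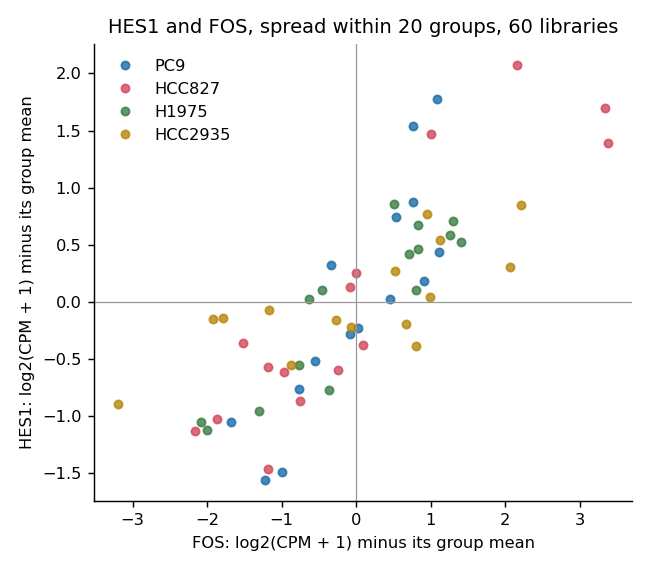
HES1 against FOS, each as log2(CPM + 1) minus the mean of its group, one point for each of 60 libraries coloured by line. Libraries with more FOS than their group's mean mostly have more HES1, with r = 0.806 over the 60 libraries.

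HEY1 was most like PDGFA (r = 0.946), a growth factor, PXDN (0.923), a peroxidase of the extracellular matrix, and COL7A1 (0.923), a collagen of anchoring fibrils. JAG1 was most like B3GALNT1 (0.916), a glycosyltransferase, SHC3 (0.883), a signalling adaptor, and KATNAL1 (0.881), a subunit related to the microtubule-severing protein katanin. Within groups those relations were weak, with r between -0.114 and 0.393 over the same 60 libraries. They describe the arms and not the spread between replicates.

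Whether an effect differed between lines was tested directly with the interaction of line and treatment. The acute effect differed for 4 of 10 members, against 40.5% of all genes tested: JAG1 (edgeR adjusted p = 8.49e-05), JAG2 (0.0208), DLL1 (0.0119) and DLL4 (0.0131). The persister effect differed for 6 of 10, against 61.6% of all genes: NOTCH2 (edgeR adjusted p = 0.000124), NOTCH3 (0.00245), JAG1 (2.15e-05), JAG2 (5.12e-06), DLL4 (3.74e-07) and HEY1 (0.0043). Both shares were near those of all genes.

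After 24 h without drug 1 of 35 tested pairs was called against persisters, JAG1 in PC9, which rose from 65.6, 49.5 and 50.7 CPM to 70.8, 87.9 and 70.9 CPM (0.47 ± 0.13, edgeR adjusted p = 0.0286). That call was lost without DTP replicate 2 (0.40, edgeR adjusted p = 0.0896), DTP replicate 3 (0.41, edgeR adjusted p = 0.087) or short washout replicate 2 (0.36, edgeR adjusted p = 0.0969). Of all genes 12.1% were higher and 10.1% lower in PC9, 2.47% and 1.04% in HCC2935, and 0% and 0% in both HCC827 and H1975. At an unadjusted p under 0.05, 4 members were counted in edgeR: JAG1 and NOTCH1 in PC9, JAG2 in H1975 and DLL1 in HCC2935. That is 2 of 9 tested members in PC9, 0 of 8 in HCC827, 1 of 9 in H1975 and 1 of 9 in HCC2935, beside 36.2%, 1.41%, 13.3% and 20.1% of all genes tested. Over all genes DESeq2 called 0 in HCC827 and 399 in H1975.

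In H1975 and HCC827 short washout and persister libraries of the same number deviated together, and that number was taken as pairing them. The labels give only a number, so the pairing comes from the same data as the calls that follow. With that number in the fit, the count over all genes in H1975 went from 0 to 1697, 983 higher and 714 lower, and 2 members were called there. JAG2 rose (log2 change 0.48, edgeR adjusted p = 0.00491, against 0.312 without the block) and NOTCH3 fell (-0.51, edgeR adjusted p = 0.0228, against 0.416). JAG2 was at 39.3, 39.7 and 30.03 CPM in the short washout and 28.9, 30.2 and 20.3 CPM in persisters, higher in each of the 3 pairs. NOTCH3 was at 11.2, 7.79 and 13.3 CPM against 19.5, 10.9 and 16.4 CPM, lower in each pair. In HCC827 the block gave 2 calls over all genes and 0 members.

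Long washout called 0 of 34 tested pairs against persisters in edgeR, with 4 at an unadjusted p under 0.05 and 3 by DESeq2. The 4 were DLL4 and HES1 in PC9 and DLL1 and JAG1 in HCC2935, and DESeq2 called DLL4 (log2 change -1.23, adjusted p = 0.0252), JAG1 (0.43, adjusted p = 0.0416) and DLL1 (-1.06, adjusted p = 0.0151). At that unadjusted p the members were 2 of 9 in PC9 and 2 of 9 in HCC2935, beside 39.4% and 23.4% of all genes tested, and 0 in HCC827 and H1975, beside 3.09% and 4.49%. After adjustment 11.8% of all genes were higher and 5.47% lower in PC9, 2.99% and 2.17% in HCC2935, 0% and 0.0136% in H1975, and 0% and 0% in HCC827. The count of members became 1 without HCC2935 long washout replicate 1 and 2 without PC9 long washout replicate 3. DLL4 in PC9, at 0.601, 0.539 and 1.17 CPM, lay below every persister library at 1.63 to 2.04 CPM (-1.21 ± 0.38, edgeR adjusted p = 0.0608). DLL1 in HCC2935, at 3.82, 2.23 and 2.07 CPM, lay below its persisters at 5.18 to 6.53 CPM (-1.06 ± 0.29, edgeR adjusted p = 0.0681).

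Against DMSO, long washout libraries still showed 14 of 31 tested pairs called, 7 higher and 7 lower. PC9 had 1 of 8 higher and 2 lower, against 15.9% and 14.7% of all genes. HCC827 had 1 of 6 higher and 0 lower (19.7% and 19.9%), H1975 1 of 8 higher and 3 lower (26.8% and 28.2%), and HCC2935 4 of 9 higher and 2 lower (21% and 18.9%). Counted in PC9 and HCC2935 alone, the lines whose long washout stood apart from the persisters in proliferation genes, 9 calls were left; that count was chosen after the data were seen. The persister and long washout comparisons share the DMSO libraries, so their likeness is no independent result.

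NOTCH3 in HCC2935 was at 61.4, 42.4 and 53.4 CPM after 10 days without drug, still 0.179-fold of DMSO (-2.48 ± 0.14, edgeR adjusted p = 2.71e-06), and in PC9 at 143, 133 and 99.8 CPM after 7 days (-0.96 ± 0.13, edgeR adjusted p = 0.00357). JAG1 in HCC2935 was at 201, 209 and 229 CPM (1.48 ± 0.11, edgeR adjusted p = 1.33e-05), above each of its DMSO libraries. HEY1 in H1975 was at 0.321, 0.278 and 0.117 CPM (-3.11 ± 0.53, edgeR adjusted p = 0.00148). These 4 groups did not overlap DMSO.

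Of the 14 calls, 3 were lost when 1 library was left out. JAG1 in PC9 (-0.49 ± 0.15, edgeR adjusted p = 0.0457) was lost when any of 5 libraries was left out, DMSO replicates 1 and 3 and the 3 long washout replicates, at an edgeR adjusted p of up to 0.148. DLL4 in PC9 (2.40 ± 0.51, edgeR adjusted p = 0.0127) was lost without DMSO replicate 1 (2.29, edgeR adjusted p = 0.0561) or DMSO replicate 3 (2.40, edgeR adjusted p = 0.0594). JAG2 in HCC2935 (0.63 ± 0.17, edgeR adjusted p = 0.017) was lost without long washout replicate 1 (0.55, edgeR adjusted p = 0.05) or replicate 3 (0.53, edgeR adjusted p = 0.0618).

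Beyond the 10 members, 48 further genes of the pathway were read from a list ordered by role. In persisters against DMSO PC9 had 18 of 45 tested genes higher and 13 lower, HCC827 14 of 44 and 4, H1975 14 of 44 and 6, and HCC2935 13 of 42 and 6. Of all genes tested 35.4% were higher and 35.9% lower in PC9, 19.4% and 17.2% in HCC827, 22.4% and 23.4% in H1975, and 25.3% and 27.2% in HCC2935. Among the 8 genes of receptor cleavage, 5, 2, 4 and 5 were higher in the 4 lines in the same order and 2, 0, 0 and 0 lower. NCSTN, MAML2, SNW1, HDAC1, RFNG, MIB2, NUMBL and DTX3 are named because each was called in one direction in at least 3 lines. Their agreement across lines is therefore set by that choice. NCSTN, a subunit of gamma-secretase, rose in all 4, from 80.2 to 158 CPM in PC9 (log2 change 0.94 ± 0.06), from 118 to 178 CPM in HCC827 (0.62 ± 0.12), from 139.9 to 267 CPM in H1975 (0.90 ± 0.11) and from 217 to 289.8 CPM in HCC2935 (0.41 ± 0.08).

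In the nucleus MAML2, a co-activator that binds the Notch intracellular domain, rose in all 4 lines, by 0.93 ± 0.11, 0.77 ± 0.21, 1.07 ± 0.12 and 0.75 ± 0.10 on the log2 scale in PC9, HCC827, H1975 and HCC2935. SNW1, a co-regulator that also takes part in splicing, fell in all 4, by log2 changes of -0.43, -0.38, -0.32 and -0.35, and HDAC1, a histone deacetylase of the co-repressor complexes, fell by -0.78, -0.48, -0.57 and -1.14. RBPJ itself rose in 1 line and fell in 1.

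RFNG, a glycosyltransferase that modifies the receptors, rose in 3 lines, as did MIB2, a ubiquitin ligase that drives ligand endocytosis. In turnover, NUMBL, an endocytic inhibitor of Notch, rose in 3 lines and DTX3 of the Deltex family in 3. The DTX3 change was largest in HCC827, from 10.3, 7.79 and 13.2 CPM in DMSO to 97.2, 79.9 and 77.7 CPM in persisters (3.04 ± 0.21, edgeR adjusted p = 4.84e-05), with acute libraries at 11.5 to 14.1 CPM.

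The further target genes did not rise together. Of the 5 on the list, HES5 was not tested in any line in persisters, and 2 of the 3 tested in HCC827 were higher, 1 of 3 in H1975 was higher, 1 of 3 in HCC2935 was lower and 0 of 3 in PC9 moved. NRARP, a feedback inhibitor of Notch that is itself a target, was lower with acute osimertinib in 3 lines. It went from 16.9 to 6.60 CPM in PC9 (log2 change -1.40 ± 0.16, edgeR adjusted p = 6.44e-05), from 3.47 to 1.52 CPM in HCC827 (-1.23 ± 0.37, edgeR adjusted p = 0.0243) and from 6.73 to 1.82 CPM in H1975 (-1.95 ± 0.22, edgeR adjusted p = 0.000443). In HCC2935 the change of -0.75 ± 0.43 was not called (edgeR adjusted p = 0.174). HES4, the related repressor whose promoter letters were given, fell with acute drug in PC9 (-1.09 ± 0.21, edgeR adjusted p = 0.00146), H1975 (-0.46 ± 0.14, edgeR adjusted p = 0.0271) and HCC2935 (-0.99 ± 0.20, edgeR adjusted p = 0.00276), where HES1 also fell. In HCC827 HES4 did not fall, with means of 8.44 CPM in DMSO and 9.32 CPM with acute drug. HEYL, another listed target, was higher with acute drug in H1975 and HCC2935. In H1975 it ran from 3.29 to 3.89 CPM in DMSO and from 4.70 to 5.96 CPM with acute drug. In HCC2935 its mean went from 2.97 to 5.00 CPM, and in HCC827 from 0.345 to 0.354 CPM. Of all genes 34.1% were lower with acute drug in PC9, 22.1% in HCC827, 23.7% in H1975 and 25.1% in HCC2935. NRARP, HES4 and HEYL were named after their values were seen.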

How the data were processed

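RNA-seq of poly(A)-selected RNA gave 60 libraries, 3 in each of 20 groups set by the labels of line and arm. The authors deposited estimated counts per gene and, in a second table, log2 values of TPM plus 0.01. The submitters' processing notes name hg38, HISAT2 2.1.0 and Salmon 0.8.2 without their roles, and whether counting used strand is not given in the sources used here. Every column was mapped to a sample by its label.

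Estimated counts were rounded and tested with edgeR 4.0.16 in R 4.3.3 (quasi-likelihood test, TMM factors, filterByExpr), one line and 2 arms per fit, with p-values adjusted over all genes of that fit and called below 0.05. Differences between lines were tested over 12 or 24 libraries. CPM values use TMM factors over all 60 libraries, and TPM values were computed back from the deposited log2 values. Likeness was Pearson's r over group means of log2(CPM + 1) among genes of at least 5 CPM. The test was also run on simulated counts with known changes, for acute drug against DMSO in PC9 and HCC2935. Replicates were drawn independently and genes of low counts were not changed, so paired replicates and the low members are not covered. A p-value within a line sets the difference between 2 arms against the spread between the replicates of that line. The tests between lines use the replicates of all 4 lines.

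The 10 members were all described. Of the further pathway genes, at most 2 a role were named, those with the largest mean change in persisters among genes called in one direction in at least 3 lines, and the 3 genes most like HES1, HEY1 and JAG1 each. One gene that this rule names is not reported here. The members and lists were chosen with earlier results of these data known.

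Replicate numbers were taken as pairing samples where same-numbered libraries deviated together, with a correlation of deviations over 0.1 in each of 3 pairs. That held in 3 of 24 comparisons, acute drug against DMSO in HCC2935 (0.126 to 0.357) and short washout against persisters in HCC827 (0.402 to 0.694) and H1975 (0.249 to 0.599), and correlations ran from -0.646 to 0.694 over all 24. The pairing comes from the data, since the labels give only a number. Alternatives were other size factors (RLE), DESeq2 1.42.0, unfiltered genes, a minimum of 10 counts in each library, a replicate block, log2(TPM + 1) values of genes with 0.5 TPM or more in 3 libraries under limma 3.58.1, all 15 libraries of a line in one fit, and each library left out. Promoter letters came from RefSeq sequences of GRCh38.p14.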

Additional observations from a re-analysis of the deposited data

Results flagged for a closer look

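In the edgeR interaction test the effect differed between the 4 lines for 4 of 10 members with acute drug and 6 of 10 in persisters. Of all genes tested it differed for 40.5% and 61.6%, so these shares are no feature of the Notch genes. The acute effect differed for JAG1 (edgeR adjusted p = 8.49e-05), which fell in PC9 and HCC2935, for JAG2 (edgeR adjusted p = 0.0208), which fell in PC9 and HCC827, for DLL1 (edgeR adjusted p = 0.0119), which rose 19.5-fold in HCC2935 and 3.54-fold in H1975, and for DLL4 (edgeR adjusted p = 0.0131), which rose in PC9 and HCC2935.

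The persister effect differed for NOTCH2 (edgeR adjusted p = 0.000124), higher in 3 lines, and for NOTCH3 (edgeR adjusted p = 0.00245), lower in PC9 and HCC2935. It differed for JAG1 (edgeR adjusted p = 2.15e-05) and JAG2 (edgeR adjusted p = 5.12e-06), both lower in H1975 and higher in HCC2935. It differed for DLL4 (edgeR adjusted p = 3.74e-07), up in PC9 and down in HCC2935, and for HEY1 (edgeR adjusted p = 0.0043), lower in H1975.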

How the results depend on the processing

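Of 60 called member changes, 43 kept their call and direction under every alternative run and 53 under every alternative other than leaving out a library, and 0 reversed. Calls kept were 60 of 60 with RLE size factors, 58 of 60 with DESeq2, 59 of 60 with no filter, 54 of 54 with at least 10 counts in every library, 53 of 57 with limma on log2(TPM + 1), 56 of 60 with the replicate block and 57 of 60 with all 15 libraries of a line in one fit. With a library left out, 310 of 360 values kept their call. Other than by leaving out a library, 24 further pairs were called under at least 1 alternative, 8 of them not tested in the reported fit: 13 with all 15 libraries of a line in one fit, 7 with limma, 5 with DESeq2, 5 with the replicate block, 3 with no filter and 2 with at least 10 counts in every library.

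The count of member calls in the short washout, 1, became 2 with the replicate block and 0 with all 15 libraries in one fit. In long washout against persisters the count of 0 became 3 with DESeq2, 1 with at least 10 counts in every library, 1 with the replicate block and 4 with all 15 libraries in one fit. In long washout against DMSO 14 became 9 with PC9 and HCC2935 alone, an alternative added after the data were seen, as fewer lines were counted. With at least 10 counts in every library, differences in DMSO fell from 8 to 4 and acute differences between lines from 4 to 2, with fewer members tested. The cause of these shifts was not tested.

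Leaving out 1 library gave 10 to 12 calls with acute drug, 13 to 18 in persisters against DMSO, 16 to 20 against acute drug, 0 to 2 in the short washout, 0 to 2 in long washout against persisters and 12 to 16 against DMSO, and 8 to 9, 3 to 5 and 6 to 7 in the 3 tests between lines. The short washout count moved without PC9 DTP replicate 2 or 3, PC9 short washout replicate 2 or HCC2935 DTP replicate 1.

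Where samples shared only a number, the replicate block lost HES1 in PC9 persisters (edgeR adjusted p = 0.106), JAG1 in the PC9 short washout (0.0513) and long washout against DMSO (0.0774) and DLL1 in H1975 with acute drug (0.0764), and added NOTCH3 in H1975 persisters (log2 change -0.68, edgeR adjusted p = 0.0316) and HES1 in PC9 long washout against persisters (-1.76, edgeR adjusted p = 0.0436). No block could be fitted for the differences between lines in DMSO. Low counts limit NOTCH1, NOTCH4, DLL1, DLL4 and HEY1.

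Over all genes, the washout counts moved most. Short washout against persisters gave 3221 calls in PC9, 0 in HCC827, 0 in H1975 and 503 in HCC2935; DESeq2 gave 399 in H1975 and 1163 in HCC2935, the block 2023 in PC9, 2 in HCC827, 1697 in H1975 and 244 in HCC2935, and all 15 libraries in one fit 880 in PC9 and 9 in H1975. Long washout against persisters gave 2496 calls in PC9, 0 in HCC827, 2 in H1975 and 745 in HCC2935; DESeq2 gave 4174, 7, 68 and 1713, the block 38 in HCC2935, limma 0 in H1975, and all 15 libraries in one fit 5532 in PC9, 1 in H1975 and 1758 in HCC2935. Long washout against DMSO in PC9 went from 4278 to 6672 calls with all 15 libraries in one fit. Under limma on log2(TPM + 1) that comparison had 2749 higher and 1312 lower genes with a median shift of 0.13, against 2219 and 2059, and long washout against persisters in PC9 had 1256 and 944, against 1707 and 789.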

Other observations

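HEYL, a further repressor of the HEY family, rose in persisters of HCC827 from 0.345 to 2.46 CPM (log2 change 2.84 ± 0.68, edgeR adjusted p = 0.0113) and of H1975 from 3.55 to 6.32 CPM (0.80 ± 0.19, edgeR adjusted p = 0.00935). HEY1 fell in H1975 persisters. In HCC2935 HEYL rose with acute drug (0.72 ± 0.25, edgeR adjusted p = 0.0373). HEYL was named after its values were seen.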
